A study of Mus musculus with 13 samples.

Results

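The p53 family of transcription factors is encoded in the mouse by *Trp53* (ENSMUSG00000059552), *Trp63* (ENSMUSG00000022510) and *Trp73* (ENSMUSG00000029026), which make p53, p63 and p73. These 3 genes were chosen by name among the 49585 genes with a row in the transcript tables. They hold 21 of the 130740 transcripts, of which 6 belong to *Trp53*, 8 to *Trp63* and 7 to *Trp73*. RNA was sequenced from oocytes of CD-1 mice, taken from ovaries of postnatal day 5 (P5) pups before or after γ-irradiation of the cultured ovaries. Each library pooled the oocytes of 4 ovaries, isolated with trypsin and centrifugation. The 8 libraries of 0.5 Gy comprised a pair for 0 h (ovaries before irradiation), a pair for 1 h, a pair for 4 h and single ones for 2.5 h and for 6 h. After 0.2 Gy, 1 library was taken at each of the same 5 time points. The labels give the strain and no altered allele for any library. The labels also give each library a generation without saying what it means: replicate 1 of 0.5 Gy has the first, replicate 2 and the 2.5 and 6 h libraries have the second, and all of 0.2 Gy has the third, so that dose and generation cannot be told apart. The labels do not say whether replicates came from separate litters, and p-values measure only the spread between these libraries.

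Primary oocytes of newborn mice store TAp63α, the long form of p63, as an inactive dimer. After DNA damage the kinases CHK2 and CK1 phosphorylate it, and it opens into an active tetramer that induces the cell death genes *Bbc3* and *Pmaip1*. The family shares a DNA-binding domain. *Trp63* and *Trp73* are each read from a pair of promoters: transcripts of the upstream promoter encode a full transactivation domain (TA forms), while those of the internal promoter start with a short exon in its place (ΔN forms, called short here). ΔNp63 is the form of basal cells in stratified epithelia. The study followed gene expression over the hours after irradiation, and the question here is whether the genes of the family themselves, and the balance of their forms, changed with time and dose.

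The libraries held between 15709549 and 30430104 estimated reads, and a count of 0 allows up to 3 reads, which covers counting error only. All 13 oocyte markers had more than 3 reads in every library, with a summed level of 1341 to 2060 TPM (a transcript's abundance relative to all others, scaled by its length). Markers of other cells were present too. Granulosa markers summed to 637 to 1170 TPM with all 9 above 3 reads in every library, the 7 stroma markers to 299.9 to 500.3 TPM, and the 7 blood and immune markers, mostly hemoglobin, to 982 to 6688 TPM. Within 0.5 Gy, the granulosa sum was 637 to 990 TPM in the 4 early libraries of 0 and 1 h and 752 to 1170 TPM in the 4 late libraries of 2.5, 4 and 6 h, and the blood sum was 2389 to 3733 TPM and 3250 to 6688 TPM. Their part in the results below was not tested. In such bulk samples, fewer cells of a type and less RNA per cell cannot be told apart.

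*Trp63* lies on chr16:25683763-25892102 of GRCm38, on the plus strand. Its 8 transcripts were split by the position of the start codon into 4 TA and 4 short transcripts. The forms part at the exon before the shared exon at chr16:25820388-25820642. In Trp63-208, the TA transcript with the longest coding sequence (TAp63α, 2040 coding bases), 324 coding bases in 3 exons come before it. In Trp63-201 (ΔNp63α, 1758 coding bases), a single exon with 42 coding bases comes before it. The sequences are shown because they hold the junction at which the coding parts of both forms meet. Capitals mark the last 42 coding bases before the shared exon, and lower case its first 18:
Trp63-208: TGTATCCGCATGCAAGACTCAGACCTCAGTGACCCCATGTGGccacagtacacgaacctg
Trp63-201: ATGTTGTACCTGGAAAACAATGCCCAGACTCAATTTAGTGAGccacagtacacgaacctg
*Trp73* lies on chr4:154056253-154140208 on the minus strand and has the same plan. Of its 7 transcripts, 2 were counted as TA, 3 as short and 2 as other. Of the other transcripts, Trp73-202 has the start codon of the short ones but is marked for nonsense-mediated decay, and Trp73-207 is incomplete. The TA transcript Trp73-204 has 183 coding bases in 2 exons, and the short Trp73-205 has 39 in 1 exon, before the shared exon at chr4:154081329-154081571. Capitals mark the last 39 coding bases before that exon:
Trp73-204: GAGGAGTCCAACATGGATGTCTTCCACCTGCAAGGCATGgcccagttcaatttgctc
Trp73-205: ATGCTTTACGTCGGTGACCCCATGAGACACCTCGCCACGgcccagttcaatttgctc

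*Trp53* lies on chr11:69580359-69591873 on the plus strand and has no second N terminus of that kind in the annotation. Its 2 main coding transcripts differ in the annotated start codon. Trp53-203 starts 9 bases upstream of Trp53-201, in the same frame, at chr11:69586891. Capitals mark these 9 bases:
Trp53-203: ATGACTGCCatggaggagtcacagtcggat
Trp53-201: atggaggagtcacagtcggatatcagcctc
As RNA, the transcripts are nearly the same molecule, 1771 and 1772 bases long, and of the 1743 distinct sequences of 30 bases in Trp53-201 all but 1 also occur in Trp53-203. Trp53-203 holds 0 that Trp53-201 lacks.

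The transcripts of a gene therefore differed in how well reads of 30 bases can tell them apart. Of the 8419 distinct sequences of 30 bases in *Trp63*, 59.8% occurred in both forms, 18.5% in TA transcripts only and 21.7% in short transcripts only. Of the 1828 short-only sequences, 1643 were found in Trp63-203 alone, and Trp63-201, Trp63-204 and Trp63-205 held 185 each. Of the 1555 TA-only sequences, 678 were found in Trp63-206 alone. For the α-ended pair the short form had few bases of its own: 848 sequences were found in Trp63-208 and not in Trp63-201, and 185 the other way. Trp73-205 had 279 that Trp73-204 lacks, but none that was found only in the transcripts counted as short, and 252 of its sequences also occur in *Trp73os*, the antisense gene that overlaps *Trp73*. The sources used here do not say whether strand was kept or used in the counting, and without strand, reads of *Trp73* and *Trp73os* cannot be told apart there. *Trp73os* itself was assigned 1 to 15 reads per library.

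Expression differed widely between the 3 genes. *Trp53* was the most abundant in every library and *Trp73* the least. After 0.5 Gy, *Trp53* had 33.7 and 26.4 TPM (0 h), 24.1 and 32.4 (1 h), 35.1 (2.5 h), 31.1 and 36.8 (4 h) and 39.1 (6 h), summed over its transcripts. After 0.2 Gy it had 32.9, 29.8, 36.2, 32.0 and 32.8 TPM in order of time. These 13 values span less than a factor of 2, without a separation of early from late libraries. *Trp63* had 3.43 and 7.99 TPM (0 h), 6.65 and 6.29 (1 h), 8.91 (2.5 h), 5.28 and 5.27 (4 h) and 6.27 (6 h) after 0.5 Gy. After 0.2 Gy it had 5.88, 7.31, 9.40, 9.25 and 3.62 TPM. In TPM, the highest value of *Trp63* at each dose was at 2.5 h, but at 0.2 Gy the 4 h value was close to it. In counts scaled to the library's total with TMM normalization (CPM), 4 h was highest at 0.2 Gy, with 127 against 116 at 2.5 h. At 0.5 Gy, 2.5 h was highest in CPM too, with 115. The lowest values of *Trp63* were in a 0 h library of 0.5 Gy and the 6 h library of 0.2 Gy. *Trp73* had 0.102 and 0.0224 TPM (0 h), 0.0911 and 0.0639 (1 h), 0.0680 (2.5 h), 0.0859 and 0.453 (4 h) and 0.568 (6 h) after 0.5 Gy. After 0.2 Gy it had 0.212, 0.124, 0.0425, 0.305 and 0.367 TPM. Its 4 highest values were all from 4 and 6 h.

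*Trp53* exceeded *Trp63* by 2.34 ± 0.52 on the log2 scale of TPM + 0.1 (mean ± SD, n = 13, higher in 13 of 13 libraries, exact sign-flip permutation test, two-sided p = 0.000244). *Trp63* exceeded *Trp73* by 4.66 ± 1.04 on the same scale (n = 13, 13 of 13 libraries, exact permutation p = 0.000244), so that no neighbours in this order overlapped within a library. This is the smallest p that 13 libraries allow, and the libraries are of different times and doses and not replicates of 1 condition. As a share of the summed TPM of the 3 genes, *Trp53* made up 76.7% to 90.5%, *Trp63* 9.21% to 23.2% and *Trp73* 0.0652% to 1.24%.

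**Figure D1:**
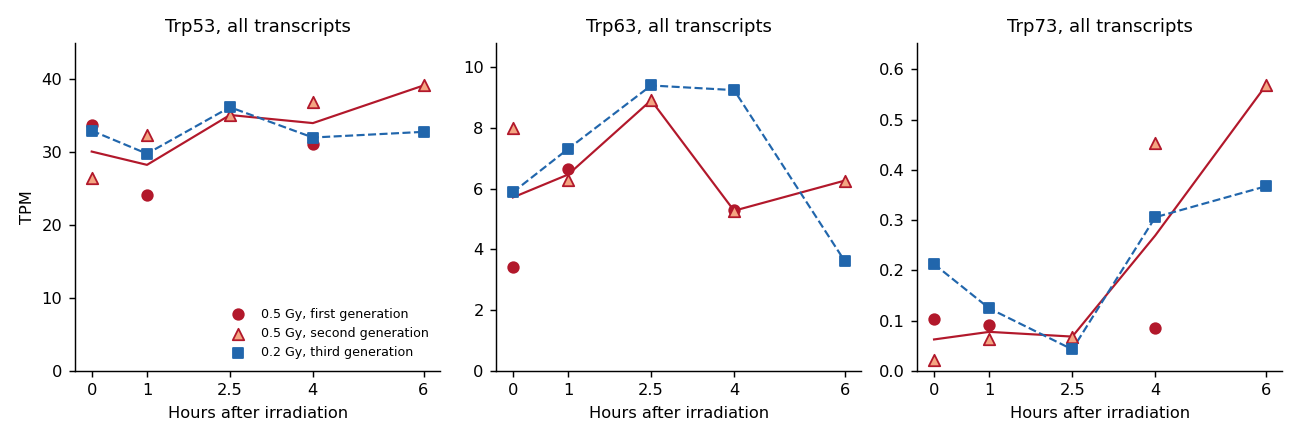
Level of each gene of the family, in TPM summed over its transcripts, against hours after irradiation, with 1 point per library and lines through the mean at each time point (full, 0.5 Gy; dashed, 0.2 Gy). *Trp53* stays between 24.1 and 39.1 TPM and *Trp63* between 3.43 and 9.40 TPM, while *Trp73* reaches 0.568 TPM at 6 h; the axes differ between panels and start at 0.

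*Trp53*, whose protein drives the DNA damage response of most somatic cells, was not called in any comparison. In CPM (counts scaled to the library's total, with TMM normalization), the early libraries of 0.5 Gy had 104 ± 26.7 and the late ones 117 ± 12.6 (mean ± SD, n = 4 each), and the ranges overlapped. Late libraries exceeded early ones by 0.15 on the log2 scale (standard error 0.18, adjusted p = 0.840 with edgeR's quasi-likelihood test and Benjamini-Hochberg adjustment). The value was 0.33 without replicate 1 of 0 h and 0.04 without replicate 2 of 0 h. To be called, a gene needed an adjusted p below 0.05 together with a log2 fold change above 1 in size, which 29 of 22588 genes (0.128%) passed in this comparison and none of the 3 members. The pooled time points of a side are not replicates of a condition. Against 0 h, the differences of *Trp53* were -0.07 (1 h), -0.02 (2.5 h), 0.13 (4 h) and 0.33 at 6 h (standard errors 0.31 to 0.38). With 4 and 6 h against 0 and 1 h in 11 libraries of both doses it was 0.19 (standard error 0.14, adjusted p = 0.862 with edgeR), where 43 of 23840 genes (0.18%) were called. The 0 h replicates were the least alike, with 138 and 74.9 CPM, which lie at the top and the bottom of the 8 libraries of 0.5 Gy.

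Among the transcripts of *Trp53*, Trp53-201 was the most abundant on average with 4.94 to 19.0 TPM (median 14.1). Trp53-203, which is nearly the same RNA, was at 2.35 and 1.06 TPM (0 h), 1.29 and 1.94 (1 h), 2.89 (2.5 h), 13.3 and 3.09 (4 h) and 13.2 (6 h) after 0.5 Gy. After 0.2 Gy it was at 4.51, 2.23, 0.548, 1.54 and 0.000227 TPM. The 4 late libraries of 0.5 Gy all lay above the 4 early ones, and differed by 2.23 on the log2 scale in reads (standard error 0.61, unadjusted p = 0.00526, adjusted p = 0.753 with edgeR), while after 0.2 Gy it was lowest, at nearly 0, at 6 h. In that comparison 0 of 56833 transcripts (0%) were called by edgeR, 3057 had an unadjusted p under 0.05, and limma on log2(TPM + 0.1) called 30. The share of all transcripts whose late and early values parted was not counted. No sequence of 30 bases sets Trp53-203 apart from Trp53-201, so that the reads could not measure its level separately. Where Trp53-203 was high, Trp53-201 was low: in replicate 1 of 4 h, Trp53-201 was at 4.94 TPM and Trp53-203 at 13.3 of the 18.3 TPM of the pair. Its share of the pair was 55.1% at 6 h of 0.5 Gy, 0.0012% at 6 h of 0.2 Gy and 3.06% to 29.4% in the other 10 libraries, whereas the sum of the pair ran from 12.3 to 24.0 TPM over all 13. The summed reads of the pair differed by 0.31 late against early (standard error 0.21, adjusted p = 0.686 with edgeR), in a fit added after the data were seen, and by 0.16 to 0.47 with a library left out.

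Trp53-202, a further coding transcript, had 1.05 to 5.95 TPM and differed late against early by -0.63 on the log2 scale in reads (standard error 0.34, adjusted p = 0.935 with edgeR). Trp53-206, also coding, was listed at 0 in all 13 libraries. Trp53-204, a non-coding transcript of 403 bases at chr11:69588695-69589821 within the gene, had 5.79 to 15.4 TPM. It took 3.46% to 7.72% of the gene's reads but 24.0% to 43.0% of its TPM, since TPM divides by a short length. The other non-coding transcript, Trp53-205, had 0.350 to 0.977 TPM. *Trp53-ps*, a processed pseudogene, shares 382 of the 1743 sequences of 30 bases of Trp53-201, and reads from these could be split between them.

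**Figure D2:**
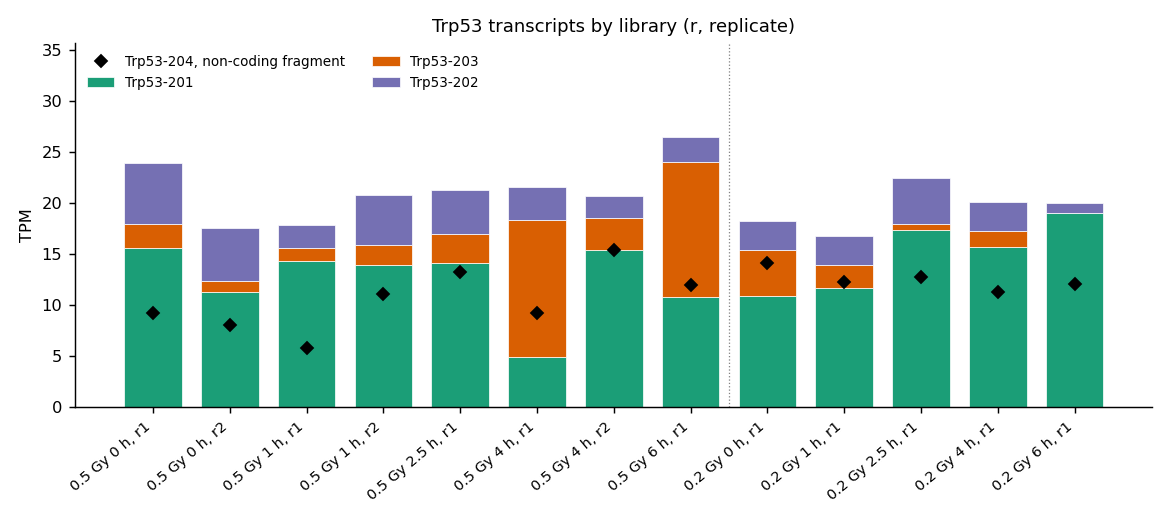
*Trp53* transcripts per library in TPM, with stacked bars for Trp53-201, Trp53-203 and Trp53-202 and diamonds for the non-coding Trp53-204 (r, replicate; dotted line, border between 0.5 and 0.2 Gy). The orange part (Trp53-203) varies from nearly 0 to 13.3 TPM mostly against the green part (Trp53-201), and the sum of the pair stays between 12.3 and 24.0 TPM.

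*Trp63*, the quality-control factor of the oocyte, was not called in any comparison either. The early libraries of 0.5 Gy had 83.3 ± 24.1 CPM and the late ones 87.5 ± 18.4 CPM (n = 4 each). The difference on the log2 scale was 0.05 (standard error 0.23, adjusted p = 0.968 with edgeR), and over both doses it was -0.06 (standard error 0.22, adjusted p = 0.983 with edgeR). The sign of so small a value depended on single libraries: late against early it was -0.12 when replicate 1 of 0 h was left out and -0.11 when the 2.5 h library was. Against 0 h it was 0.21 (1 h), 0.57 (2.5 h, standard error 0.43), -0.00 (4 h) and 0.08 (6 h). The 0 h replicates differed by a factor of 2.03, with 50.7 and 103 CPM, while the other 6 libraries of 0.5 Gy lay between 76.3 and 115 CPM. The range of these 6 thus overlapped the upper replicate of 0 h and lay above the lower one.

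Both forms of *Trp63* were assigned reads in every library, and the short transcripts took most of the TPM as assigned. This split rests on few distinguishing sequences. Of the 30-base sequences of Trp63-201 and Trp63-205, 185 each (3.96% and 3.97%) were found in short transcripts only. None of Trp63-201, Trp63-204, Trp63-205, Trp63-207 and Trp63-208 had a sequence of its own, and the error of the split was not measured. The TA transcripts summed to 0.941 and 1.41 TPM (0 h), 1.85 and 1.65 (1 h), 2.20 (2.5 h), 0.738 and 1.49 (4 h) and 1.95 (6 h) after 0.5 Gy. The short transcripts summed to 2.49 and 6.58 TPM (0 h), 4.80 and 4.64 (1 h), 6.72 (2.5 h), 4.54 and 3.78 (4 h) and 4.32 (6 h). In each of these 8 libraries the short sum was thus above the TA sum. The same held after 0.2 Gy, where the TA sum was 1.22 to 2.78 TPM and the short sum 2.40 to 6.83 TPM. The share of TA in the TPM of *Trp63* was 14.0% to 33.6% with a median of 27.8% (n = 13).

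This share was not shown to differ between early and late libraries. It was 24.8% ± 4.80 in the early and 24.5% ± 7.51 in the late libraries of 0.5 Gy (SD, n = 4 each, exact permutation test, two-sided p = 0.971, where 0.0286 is the smallest p possible). At 4 and 6 h of both doses it was 26.6% ± 7.62 (n = 5), against 26.2% ± 4.37 at 0 and 1 h (n = 6, exact permutation p = 0.900). The lowest share, 14.0%, was in replicate 1 of 4 h, and replicate 2 of the same time point had 28.3%. Without replicate 1 of 4 h, the late mean was 28.0% and the difference 3.26 percentage points (exact permutation p = 0.429). The summed reads of the TA transcripts differed by 0.06 late against early (standard error 0.31) and those of the short transcripts by 0.04 (standard error 0.25).

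Among the TA transcripts, Trp63-202 (β-type end, 1665 coding bases) had 0.257 to 2.25 TPM and was the highest of the 4 in 11 of 13 libraries. Trp63-208, the TAp63α transcript, had at most 0.595 TPM. After 0.5 Gy its reads were under 1 in both libraries of 0 h, in replicate 1 of 1 h and in replicate 1 of 4 h. They were 9.26 in replicate 2 of 1 h, 153 at 2.5 h, 195 in replicate 2 of 4 h and 262 at 6 h, and after 0.2 Gy 123, 7.66, 5.59, 52.5 and 11.8 in order of time. The 4 libraries under 1 read include all 3 of the first generation, and Trp63-208 shares 5199 sequences of 30 bases with Trp63-202 and holds 138 that Trp63-202 lacks. Across both doses it differed by 3.94 on the log2 scale (standard error 2.17, adjusted p = 1.000 with edgeR), and at 0.5 Gy alone it had too few reads for the filter. Trp63-207 (γ-type end) had at most 0.670 TPM, with 0 reads in 4 libraries, and the truncated Trp63-206 had 0.145 to 0.594 TPM.

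Among the short transcripts, Trp63-205 was on average the highest, with 0.556 to 3.45 TPM, and its near twin Trp63-201 had 0.0999 to 3.29 TPM. These 2 ΔNp63α transcripts share 4633 sequences of 30 bases. Trp63-205 holds 29 that Trp63-201 lacks, and Trp63-201 holds 41 that Trp63-205 lacks, but none was found in that transcript alone. Trp63-204 (γ-type end) had 0.00340 to 1.87 TPM and the truncated Trp63-203 had 0.0213 to 0.374 TPM. By the C-terminal end, α transcripts made up 45.6% to 71.0% of the TPM of *Trp63*, β-type 7.11% to 23.9%, γ-type 10.4% to 24.3% and truncated ones 2.73% to 13.6%. The 7 transcripts of *Trp63* that had enough reads in either transcript comparison all stayed uncalled, and over both doses 1 of 60520 transcripts (0.00165%) was called.

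Markers of stratified epithelium, where the short form is known to be made, were near 0 in these libraries. The 6 markers summed to 0.303 to 1.25 TPM in 12 libraries, with *Krt5*, *Krt15* and *Krt17* at 0 in at least 1 library, and to 10.1 TPM in replicate 1 of 1 h of 0.5 Gy. In that library the TA share was 27.8%, at the median of all 13. The ranges were 0.303 to 10.1 TPM in the early and 0.486 to 0.899 TPM in the late libraries of 0.5 Gy. The 6 markers of ovarian surface and other simple epithelium summed to 13.2 to 26.6 TPM.

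**Figure D3:**
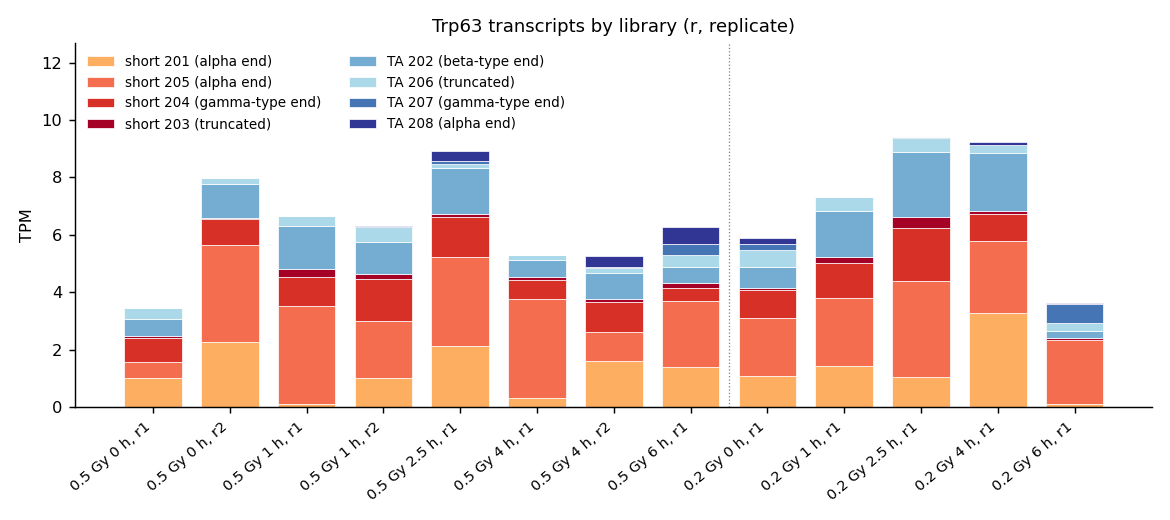
*Trp63* transcripts per library as stacked bars in TPM (r, replicate; warm colours, short transcripts; blue, TA transcripts; dotted line, border between 0.5 and 0.2 Gy). As assigned, the warm part is larger in all 13 libraries. The blue part is 14.0% to 33.6% of each bar, and the darkest blue (Trp63-208) is at most 0.595 TPM.

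*Trp73*, which is known for its role in multiciliated and nerve cells and shares targets with p53, was the only member whose late and early values largely parted, and it rested on few reads. It had 16.1 and 3.47 estimated reads (0 h), 17.5 and 11.8 (1 h), 15.6 (2.5 h), 29.7 and 133.9 (4 h) and 138.4 (6 h) after 0.5 Gy. Only replicate 2 of 4 h and the 6 h library, both of the second generation, thus stood well above the rest, and replicate 1 of 4 h lay between them and the early libraries. After 0.2 Gy it had 50.1, 26.5, 14.6, 71.8 and 61.9 reads in order of time, so that its 0 h library was not far below the late ones. In CPM, the early libraries of 0.5 Gy had 0.508 ± 0.237 and the late ones 3.04 ± 2.50 (n = 4 each), which is 5.99 times as much. Of the 4 late libraries, 3 lay above the highest early one. Over both doses, 4 of 5 libraries of 4 and 6 h lay above the highest of 6 libraries of 0 and 1 h. The share of all genes that parted to this degree was not counted.

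By edgeR's quasi-likelihood test, the late libraries exceeded the early ones by 2.53 on the log2 scale (standard error 0.71, unadjusted p = 0.00390, adjusted p = 0.322), the 273rd smallest p of 22588 genes. Over both doses it was 2.23 (standard error 0.49, unadjusted p = 0.000512, adjusted p = 0.136), the 89th of 23840. *Trp73* was therefore not called in either comparison. The Wald test of DESeq2 with its beta prior called it in both: the shrunken log2 fold change was 1.28 (adjusted p = 0.0223) late against early, with 200 of 46404 genes (0.431%) called, and 1.43 (adjusted p = 0.000620) over both doses, with 143 of 47611 genes (0.3%) called. The study used this test for each time point against 0 h at 0.5 Gy, and not for these pooled sides. The edgeR value was 2.13 to 2.87 when each of the 8 libraries was left out in turn, and was lowest without the 6 h library. Over all alternatives tried, the adjusted p ran from 0.0223 to 0.706 late against early and from 0.000620 to 0.375 over both doses.

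Against 0 h, *Trp73* differed by 0.43 (1 h, standard error 0.89), 0.47 (2.5 h, standard error 1.06), 2.84 (4 h, standard error 0.89, adjusted p = 0.819 with edgeR) and 3.59 (6 h, standard error 1.00, adjusted p = 0.647 with edgeR). The value at 4 h was 1.40 without replicate 2 of 4 h and 3.92 without replicate 1 of 0 h, and the value at 6 h was 3.05 without replicate 2 of 0 h and 4.67 without replicate 1 of 0 h. In these comparisons edgeR called 0 of 28468 genes (0%) at each time point, with 1133, 1590, 1658 and 1691 genes at an unadjusted p under 0.05 at 1, 2.5, 4 and 6 h. DESeq2 with its beta prior called 20, 83, 125 and 138 genes and no member of the family. The comparisons share the 0 h libraries.

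Within 0.5 Gy, 4 and 6 h against 0 and 1 h gave a difference of 2.87 on the log2 scale for *Trp73* (standard error 0.57, adjusted p = 0.121 with edgeR, 0.128% of 28162 genes called), and within 0.2 Gy it was 1.18 (standard error 0.72, adjusted p = 0.746 with edgeR, 0.0462% called). Without replicate 1 of 4 h, the value within 0.5 Gy was 3.30 (standard error 0.49, adjusted p = 0.0286 with edgeR), so that *Trp73* was called in that fit. The difference between the doses, 0.2 minus 0.5 Gy, was -1.69 (standard error 0.91, unadjusted p = 0.0855, adjusted p = 0.649 with edgeR), where 9 of 28162 genes (0.032%) were called. The doses were thus not shown to differ in *Trp73*. Without the 0 h library of 0.2 Gy the difference was -1.14, and without replicate 1 of 4 h it was -2.12 (unadjusted p = 0.0176 with edgeR). For *Trp53* and *Trp63* the difference was -0.01 (standard error 0.31) and 0.16 (standard error 0.48).

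**Figure D4:**
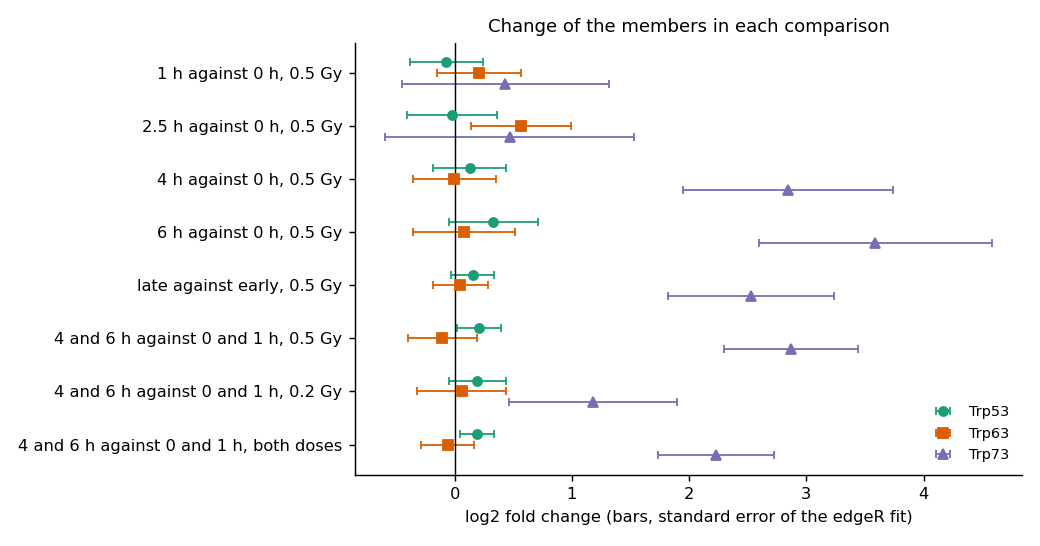
Log2 fold change of each member in 8 comparisons by edgeR's quasi-likelihood test, with bars of 1 standard error. *Trp53* and *Trp63* lie between -0.11 and 0.57, and *Trp73* lies above 1 in the 6 comparisons that hold 4 or 6 h libraries; no member was called with all libraries, and several comparisons share libraries.

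The reads of *Trp73* were assigned mostly to its short transcripts. These had 13.6 and 3.39 reads (0 h), 16.5 and 10.4 (1 h), 15.6 (2.5 h), 29.7 and 134 (4 h) and 111 (6 h) after 0.5 Gy, which differed late against early by 2.55 on the log2 scale (standard error 0.69, adjusted p = 0.299 with edgeR, fit added after the data were seen). TA reads were found in 3 of 13 libraries only: 1 read in replicate 1 of 1 h and 27.7 reads at 6 h after 0.5 Gy, and 56.0 reads at 4 h after 0.2 Gy. In the last of these the TA share of the TPM was 63.5%, the highest of all libraries. The other 10 libraries were assigned no TA reads. By counting error alone, this would allow a share of the reads up to 2.24% in replicate 2 of 4 h and up to 86.6% in replicate 2 of 0 h. These limits treat every read as able to show its form. Of the distinct sequences of 30 bases in *Trp73*, 79.6% occurred in both forms and 12.3% in TA transcripts only. The true limits are therefore wider and were not measured. The TA share was not shown to differ between late and early libraries (exact permutation p = 1 at 0.5 Gy, n = 4 each, and 0.576 over both doses, n = 5 and 6). With TA reads in only 1 early and 1 late library of 0.5 Gy, the test there could not have given a small p. In that early library, 1 read made up 46.4% of the TPM and 5.70% of the reads.

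Trp73-205, the α-type short transcript with 1770 coding bases, was the main one with 0 to 0.248 TPM, and it differed late against early by 2.02 on the log2 scale (standard error 0.75, adjusted p = 0.919 with edgeR). Trp73-201, a shorter transcript of the same start, reached 0.310 TPM and had no reads in 6 libraries. Trp73-203 was listed at 0 in all libraries, Trp73-202, which is marked for nonsense-mediated decay, in 11 and the incomplete Trp73-207 in 8. Trp73-204 and Trp73-206, the TA transcripts, were each at 0 in 11 libraries. At 0.2 Gy and 4 h, Trp73-204 held 55.0 reads and Trp73-205 none, while at 6 h of the same dose Trp73-205 held 49.2 and Trp73-204 none. The assigned form thus switched between neighbouring libraries with a like number of reads.

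**Figure D5:**
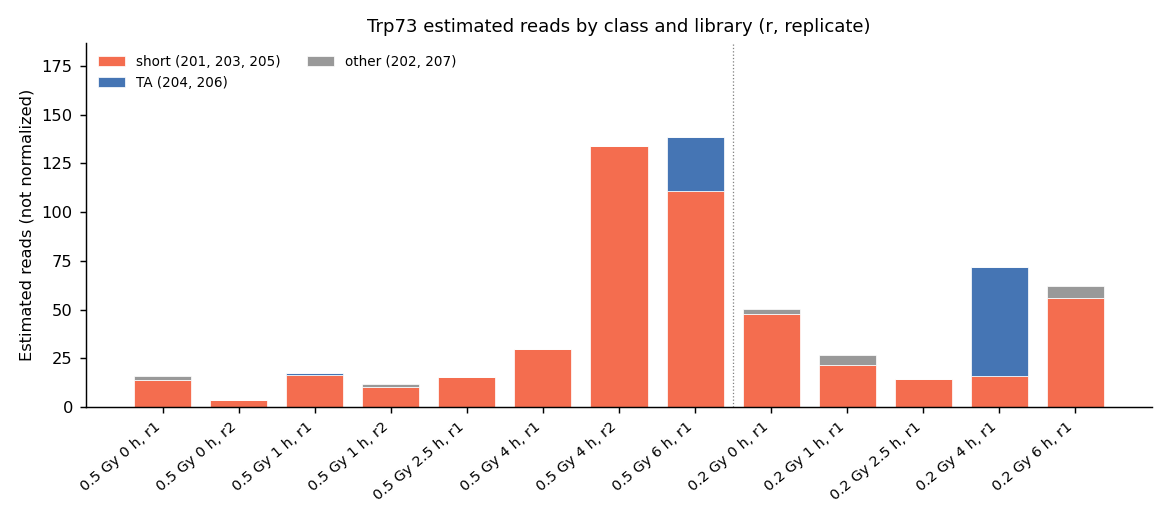
Estimated reads of *Trp73* per library, not normalized, as stacked bars of short, TA and other transcripts (r, replicate; dotted line, border between 0.5 and 0.2 Gy). Replicate 2 of 4 h and the 6 h library of 0.5 Gy hold 133.9 and 138.4 reads, all other libraries at most 71.8, and TA reads form a visible part of 2 bars.

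*Trp73os* had 5, 2, 3, 2, 2, 3, 3 and 15 reads in the 8 libraries of 0.5 Gy, with the 15 at 6 h, and 1 to 9 reads after 0.2 Gy. It was highest in the library in which *Trp73* was highest, and had 3 reads in replicate 2 of 4 h, where *Trp73* had 133.9 reads. Whether reads of 1 gene were assigned to the other was not tested. The 7 multiciliated markers summed to 13.3 to 19.4 TPM in the early and 13.2 to 17.4 TPM in the late libraries of 0.5 Gy. Over all 13, *Ccno* alone had 8.93 to 17.0 TPM and *Tekt1* 0.171 to 5.47 TPM. The others were lower, with *Foxj1* at most 0.120 TPM, *Mcidas* 0.194, *Gmnc* 0.213, *Deup1* 0.475 and *Dnah5* 0.0724. The part of such cells in the reads of *Trp73* was not tested.

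Promoter windows of 300 bases from RefSeq (GRCm38.p6) were matched for 2 of the 3 genes (not *Trp63*) and searched on both strands for the p53 consensus, a pair of half-sites of 10 bases without a spacer, with the core C and G of each half-site fixed and at most 2 mismatches in all. The window of the internal *Trp73* promoter, from which the short transcripts start, holds a match with 2 mismatches at chr4:154097220-154097239, whose first base lies 66 bases before the annotated start. It is shown because the reads of *Trp73* were mostly given to these transcripts. On the minus strand, chr4:154097180-154097279 reads as follows, with the match in capitals:
Trp73 internal promoter: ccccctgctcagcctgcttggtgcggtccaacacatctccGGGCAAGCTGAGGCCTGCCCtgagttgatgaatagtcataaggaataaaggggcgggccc
Such a match was found in 107 of 32851 promoter windows (0.326%). The windows of the upstream *Trp73* promoter and of *Trp53* held none. A match describes letters and not binding.

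The genes that act on the family were looked at as a list of 34 regulators, all of which were tested. Of these, 1 was called late against early at 0.5 Gy (*Mdm2*, against 0.128% of all genes), 21 of 34 had a positive log2 fold change, and the median was 0.12, beside -0.02 over all genes. *Mdm2*, the ubiquitin ligase that degrades p53 and is itself a p53 target, rose by 2.63 (standard error 0.29, adjusted p = 0.00362 with edgeR), from 62.7 ± 10.3 to 396 ± 172 CPM. *Mdm4*, its partner, differed by -0.24 (standard error 0.17). *Chek2*, which encodes CHK2, had 0.45 (standard error 0.17, adjusted p = 0.469 with edgeR), and its late libraries of 32.9 CPM or more did not overlap the early ones of 28.4 CPM or less. The late and early libraries of *Csnk1d* did not overlap either, at 106 CPM or more against 101 CPM or less. Other regulators of the list parted in the same way, and the share of all genes that did so was not counted. *Atm*, the kinase upstream of CHK2, had -0.32 (standard error 0.18) and *Abl1*, which encodes the tyrosine kinase c-Abl, 0.44 (standard error 0.19). The CK1 genes *Csnk1a1*, *Csnk1d* and *Csnk1e* had -0.08, 0.42 and 0.21 (standard errors 0.20, 0.15 and 0.17). None of these 7 was called.

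Of 20 known p53 targets, 9 were called late against early at 0.5 Gy (0.128% of all genes), each with a positive value, and the median log2 fold change was 1.26, beside -0.02 over all genes. The largest called changes were in *Pmaip1*, which encodes the death inducer NOXA, at 3.42 (standard error 0.51, adjusted p = 0.0301 with edgeR), in *Cdkn1a*, the p21 cell cycle inhibitor, at 3.32 (standard error 0.36, adjusted p = 0.00362), and in *Eda2r*, a death receptor, at 3.21 (standard error 0.35, adjusted p = 0.00362). *Phlda3*, a repressor of AKT, followed at 2.72 (standard error 0.35, adjusted p = 0.0102). Over both doses, 10 of 20 targets and 1 of 34 regulators were called (0.18% of all genes). Within 0.2 Gy, 0 of 20 and 0 of 34 were, where edgeR gave 2054 of all genes an unadjusted p under 0.05 and called 13 (0.0462%). There 19 of 20 targets and 28 of 34 regulators had a positive log2 fold change. Their medians were 0.97 and 0.27, beside -0.03 over all genes. These lists were chosen with results of these data known and *Mdm2* is in both, so that their counts are a description.

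Pearson's r of log2 CPM was -0.47 between *Trp53* and *Trp63*, 0.47 between *Trp53* and *Trp73* and -0.24 between *Trp63* and *Trp73*. Among 15058 protein-coding genes with a mean of at least 1 CPM, those most like *Trp53* were *Slc30a3* (r = 0.893), *Alad* (0.890), *H1foo* (0.884), *Bcl2l10* (0.880) and *Mta1* (0.877). Those most like *Trp63* were *Nmnat3* (0.908), *Unc13c* (0.890), *Tmco3* (0.885), *Zkscan8* (0.866) and *Gpr89* (0.863). Those most like *Trp73* were *Arhgef10l* (0.907), *Ephx1* (0.899), *Arhgef4* (0.891), *Slc6a8* (0.878) and *Nfil3* (0.878). The libraries share time points, doses and generations, and the highest of so many correlations are high by selection.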

How the data were processed

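Reads of 30 bases from SMARTer cDNA of pooled oocytes were quantified by the authors with Salmon on the Ensembl transcripts of GRCm38, and the deposited values are estimated counts and TPM per transcript. The submitters' processing notes name DESeq2 1.24.0. Here the deposited estimated counts were summed per gene, rounded and tested with edgeR 4.0.16 (TMM, filterByExpr, quasi-likelihood test, with calls needing an adjusted p below 0.05 and a log2 fold change above 1 in size), in R 4.3.3. Standard errors are the log2 fold change over the root of F. DESeq2 1.42.0 and limma 3.58.1 served as alternatives. Transcripts without a gene, at most 0.495% of reads, were left out. The fits were tested on simulated data. TA and short transcripts were told apart by coding exons in the GENCODE annotation of GRCm38, which matched all 21 transcripts in length. Shares were compared by exact permutation, two-sided. Sums over a transcript class were tested in fits added after seeing the data. Named were the members, each of their transcripts, overlapping genes, called regulators and at most 8 others by role, the 4 targets with the largest called change, and the 5 genes most like each member. Members and lists were chosen with earlier results of these data known. Reads were paired by the methods and single by the series text. Intervals and floors cover counting error only. The depth was 15709549 to 30430104 estimated reads per library.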

Additional observations from a re-analysis of the deposited data

Results flagged for a closer look

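The 2.5 h library of 0.2 Gy, which no comparison uses, had 36.2 TPM of *Trp53* and 9.40 TPM of *Trp63*, both above all 3 libraries of 0 h. For *Trp53* this held in TPM only. In CPM it had 112 there, below the 138 of replicate 1 of 0 h of 0.5 Gy. *Trp73os*, the antisense gene overlapping *Trp73*, had 0.104 TPM at 6 h of 0.5 Gy and 0.0521 TPM at 1 h of 0.2 Gy, above the 0.0305, 0.0314 and 0.0393 TPM of the libraries of 0 h. These values rest on 15 and 9 reads, and the differences were not tested.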

How the results depend on the processing

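*Trp73* was called by DESeq2 with its beta prior, at 1.28 late against early and 1.43 over both doses, and by edgeR within 0.5 Gy without replicate 1 of 4 h (3.30, adjusted p = 0.0286), and in no other fit tried. With the labelled generation as a block, edgeR gave 2.48 (adjusted p = 0.436) and 2.01 (adjusted p = 0.312). Over both doses this block took the place of dose. Deviations of same-numbered libraries correlated at 0.125, 0.0760 and 0.108 over 28468 genes, not all above 0.1. At 0, 1 and 4 h of 0.5 Gy, same-numbered libraries share a labelled generation. The labels do not say what it marks, and the libraries were not treated as pairs in the fits reported above. The block gave -0.00992 for *Trp63* late against early, 0.0596 for *Trp53* at 2.5 h, 0.0397 for *Trp63* at 4 h, -0.358 for Trp63-201, 0.0212 for Trp63-205 and -0.114 for the summed TA reads of *Trp63*, each of the opposite sign to the value reported. Other sign changes were in *Trp63* late against early with 4 and 6 h as the late side (-0.110), in *Trp53* at 2.5 h (0.0144) and *Trp63* at 4 h (0.0543) without a filter, in Trp53-205 (0.0108 without a filter, 0.00165 by limma on TPM + 1), and in Trp63-205 (0.0195 without a filter, 0.217 and 0.109 by limma). In shares by reads, the TA share differed by -2.20 percentage points for *Trp63* over both doses and by 3.57 for *Trp73* late against early. The cause was not tested.

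Late against early, 29 genes were called, 58 without a filter, 18 with the replicate block, 9 with 0 h alone as the early side, 14 with 4 and 6 h as the late side, 200 by DESeq2 and 10 to 37 with a library left out (10 without replicate 1 of 0 h, replicate 2 of 4 h or the 6 h library, 12 without replicate 2 of 0 h, 14 without the 2.5 h library). Over both doses 43 were called, 28 among protein-coding genes, 143 by DESeq2 and 21 to 39 with a library left out. With a library left out, the log2 fold change of *Trp63* was -0.125 to 0.188 late against early and -0.266 to 0.0759 over both doses. Against 0 h, *Trp53* was at -0.426 to 0.393 (1 h), -0.375 to 0.443 (2.5 h), -0.226 to 0.593 (4 h) and -0.0225 to 0.797 (6 h), *Trp63* at -0.240 to 0.840 (1 h), -0.448 to 0.632 (4 h) and -0.367 to 0.712 (6 h), and *Trp73* at -0.110 to 1.51 (1 h) and -0.0713 to 1.55 (2.5 h). Trp53-205 was at -0.160 to 0.161, Trp63-201 at -0.202 to 0.679, Trp63-205 at -0.299 to 0.303, and the summed *Trp63* reads at -0.149 to 0.289 (TA) and -0.137 to 0.254 (short). The difference in TA share was -2.63 to 3.26 (late against early) and -1.35 to 3.57 percentage points (both doses) for *Trp63*, and -12.2 to 3.30 and -4.43 to 15.4 for *Trp73*. In all, among settings other than a left-out library, 137 values kept direction and call, 2 newly passed the threshold, 7 moved and 16 changed sign. With a library left out, 312 kept both, 11 moved and 39 changed sign. *Trp53* was at 0.0417 to 0.326 late against early and *Trp73* at 3.05 to 4.67 at 6 h.

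Few reads limit *Trp73*, whose forms rest on at most 138.4 reads in a library, and the 2.5 and 6 h time points of 0.5 Gy and all of 0.2 Gy have 1 library each.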
